A study of Homo sapiens with 80 samples.

Results

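The step from day 6 to day 8 of a cardiomyocyte differentiation was examined in WTC11, a human induced pluripotent stem cell line, as 3 poly(A) RNA libraries of day 8 (wells 1, 2 and 4) against 4 of day 6 (wells 1 to 4). These 7 libraries of the 80 in the series were chosen by their labels alone. Every one came from a single differentiation begun at passage 52 and classed as high purity on day 16 from the share of cells staining for cardiac troponin T. Genes with at least 1 TPM (transcripts per 1e6, a share of all transcripts that allows for gene length) in 3 or more of the 7 wells were kept, which left 18737 genes. All wells had received CHIR99021, which activates WNT signalling, on day 0, then IWP2, which blocks WNT secretion, on day 2, in RPMI medium with B27 lacking insulin. From day 6 the medium held B27 with insulin. Whether the day 6 wells were taken before or after that change is not given in the sources used here. The low purity wells used for comparison were 4 of day 6 and 4 of day 8, from 1 WTC11 differentiation begun at passage 69 on the same schedule. Purity, passage and differentiation cannot be told apart between these sets, and the wells of a set measure the spread within 1 differentiation.

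In this protocol a pulse of WNT activation turns pluripotent cells into mesoderm, and its later inhibition steers the mesoderm to heart progenitors. Progenitors divide and carry growth factor receptors and patterning genes. As they become cardiomyocytes they assemble sarcomeres, in which myosin thick filaments pull on actin thin filaments anchored at the Z-disc, and a sarcoplasmic reticulum that releases and takes up the calcium that triggers each contraction. Fetal cardiomyocytes at first use much glucose, and oxidative enzymes accumulate as they mature.

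TNNT2, cardiac troponin T, is the thin filament protein by which purity was scored, and it checks the labels. Its level on day 6 was 1335, 916, 656 and 1751 TPM in wells 1 to 4, and on day 8 it was 2474, 2874 and 3507 TPM in wells 1, 2 and 4. Every day 8 well lay above every day 6 well. The log2 fold change was 1.70 ± 0.34 (SE) with a limma adjusted p of 0.0091, and an exact permutation test of the well levels (two-sided) gave 0.0571. No division of 4 and 3 wells can give a lower value. On day 4 the mean had been 15.2 TPM. On day 16 it was 3375 ± 446 TPM (SD, n = 3).

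Reads per well ranged from 9752007 to 17974520. RNR2, a mitochondrial rRNA, made up 11.3% to 17.1% of all TPM in the day 6 wells and 17.0% to 24.7% in the day 8 wells. RN7SK, a small nuclear RNA, made up 6.82% to 9.93% and 10.5% to 11.7%. TPM values are shares, so all others shrink as these grow, and the TPM were therefore scaled with TMM factors, which lay between 1.04 and 1.17 for day 6 and between 0.795 and 0.966 for day 8. The first principal component held 44.0% of the variance and separated the days. Day 6 well 4 was the day 6 well nearest to day 8 on it.

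A gene was called when its Benjamini-Hochberg adjusted p in limma was under 0.05 and its log2 fold change, on the log2(scaled TPM + 1) scale, was at least 1 in size. Of the 18737 genes 1273 were called (6.79%). Higher on day 8 were 704 genes (3.76%), and lower were 569 (3.04%). The wells of the days did not overlap, in TPM before scaling, for 1261 of the called genes and for 7171 genes tested (38.3%). Without scaling more genes lie lower on day 8, so genes with lower values separate more readily. An adjusted p under 0.05 in limma, whatever the fold change, was reached by 4647 genes, and an unadjusted one by 6916. List counts are read against these shares, and a single call in a list says little about the list. Scaling sets the balance of directions: 55.3% of calls were higher on day 8 with TMM, and 29.6% without scaling (472 higher, 1120 lower), where the median of all genes moved by -0.24. Of the genes called with TMM, 471 of those that rose and all 569 that fell were also called without scaling. Of 13092 protein-coding genes tested 584 rose and 338 fell, while of 2551 long noncoding RNAs tested 66 rose and 127 fell. These counts by class were made with TMM only. In bulk RNA, more cells of a type and more RNA per cell cannot be told apart.

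**Figure D1:**
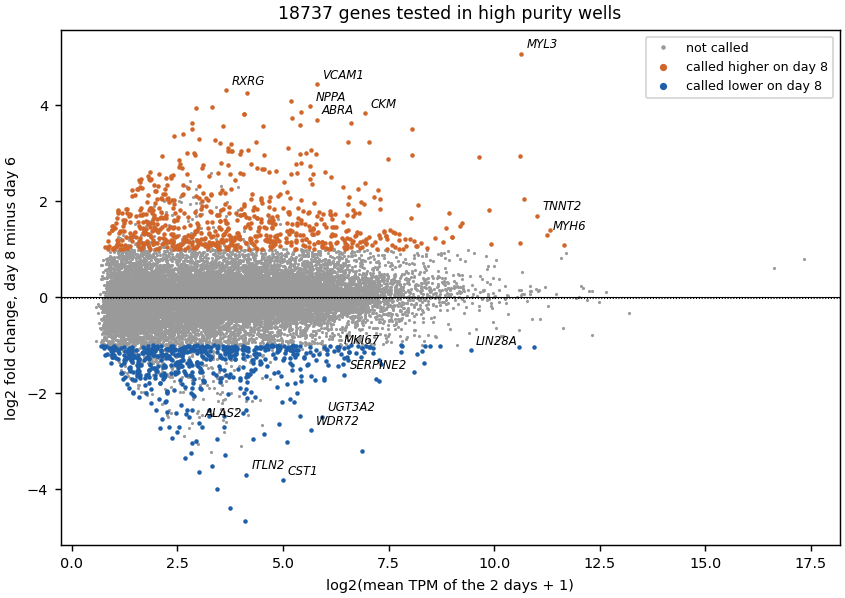
Log2 fold change from day 6 to day 8 (vertical axis) against log2 of the mean TPM of the days plus 1 (horizontal axis) for the 18737 genes tested in high purity wells. Points are genes, orange where called higher on day 8 (704) and blue where called lower (569). MYL3 stands alone among highly expressed genes at a log2 fold change of 5.08.

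The genes of the contractile machinery rose together, and no tested member of the sarcomere lists fell. Of 7 thick filament genes tested 6 rose, with a median log2 fold change of 2.88 against -0.01 for all genes tested. Of 8 thin filament genes 6 rose (median 1.73), and of 13 Z-disc and M-band genes 10 rose (median 2.68). Without scaling these medians were 2.61, 1.46 and 2.42. XIRP1, a Z-disc linker, was at the threshold with a log2 fold change of 1.01, and it fell short of it under 9 alternatives, among them without day 8 well 4 (0.86).

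MYL3 (chromosome 3, 46857872 to 46882182, GRCh38), the essential myosin light chain of ventricle and slow muscle, rose most of all named genes. It was at 207, 70.5, 35.5 and 257 TPM in the day 6 wells and at 2731, 3412 and 2994 TPM in the day 8 wells. Every day 8 well exceeded every day 6 well, and the day 6 wells differed widely among themselves. The log2 fold change was 5.08 ± 0.63 (SE), adjusted p 0.0011. Its atrial and embryonic counterpart MYL4 started higher, at 568 to 942 TPM, and reached 2320 to 2872 TPM, so that the ranges of the pair overlapped on day 8 and not on day 6. The regulatory light chain of the atrium, MYL7, went from 330 to 506 TPM on day 6 to 2540 to 2883 TPM on day 8 (log2 fold change 2.94 ± 0.17). MYL2, the regulatory light chain of the ventricle, was not tested, because it was listed at 0 in all 4 day 6 wells and at 0.306, 0 and 0.745 TPM on day 8.

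Both cardiac myosin heavy chains rose. MYH6, the fast heavy chain of atrium and early heart, was at 2079, 1482, 1138 and 1916 TPM on day 6 and at 3056, 3534 and 3186 TPM on day 8, a log2 fold change of 1.29 ± 0.21. MYH7, the slow heavy chain of the ventricle, was at 10.4, 6.23, 3.74 and 7.39 TPM and then at 61.2, 81.4 and 84.8 TPM, a log2 fold change of 3.59 ± 0.28. For both genes the days did not overlap. MYH7 remained far below MYH6 on day 8, and had a mean of 712 ± 94.8 TPM (SD, n = 3) on day 16, when MYH6 was at 3991 ± 535 TPM. These genes lie side by side and are similar in sequence, and the authors' counting could have split reads between them. TTN, the giant spring that joins Z-disc and M-band, was not called: it was at 246 to 412 TPM on day 6 and 287 to 363 TPM on day 8 (log2 fold change 0.36 ± 0.18, adjusted p 0.20). MYBPC3, which binds the thick filament, rose from 24.5 to 88.4 TPM to 265 to 330 TPM.

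In the thin filament, the troponin subunits rose unequally. TNNC1, the calcium-binding subunit, went from 155 to 282 TPM on day 6 to 1225 to 1442 TPM on day 8 (log2 fold change 2.93 ± 0.21). The inhibitory subunits TNNI1, of fetal heart and slow muscle, and TNNI3, of adult heart, had log2 fold changes of 1.76 ± 0.22 and 2.05 ± 0.14, and TNNI1 kept the higher level, 620 to 792 against 206 to 272 TPM on day 8. ACTC1, cardiac actin, was at 1149 to 1940 TPM and then at 3309 to 3765 TPM (log2 fold change 1.41 ± 0.19). TPM1, tropomyosin, had an adjusted p of 0.0086 but a log2 fold change of 0.77, under the threshold, and ACTA1, skeletal actin, had one of 0.36.

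At the Z-disc and M-band the members with the largest changes were CSRP3, a muscle LIM protein, SMPX, a small stress-responsive muscle protein, and MYOM1, which crosslinks thick filaments. CSRP3 was at 24.1, 13.8, 9.71 and 21.3 TPM on day 6 and at 155, 183 and 194 TPM on day 8 (log2 fold change 3.63 ± 0.28). ACTN2, the alpha-actinin that crosslinks actin at the Z-disc, went from 43.0 to 93.0 TPM to 414 to 481 TPM (log2 fold change 2.97 ± 0.25). Well 3 was the lowest day 6 well for CSRP3, SMPX, MYOM1 and ACTN2, as it was for TNNT2. Among those not called were SYNPO2L and NEBL (log2 fold changes 0.56 and 0.97).

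**Figure D2:**
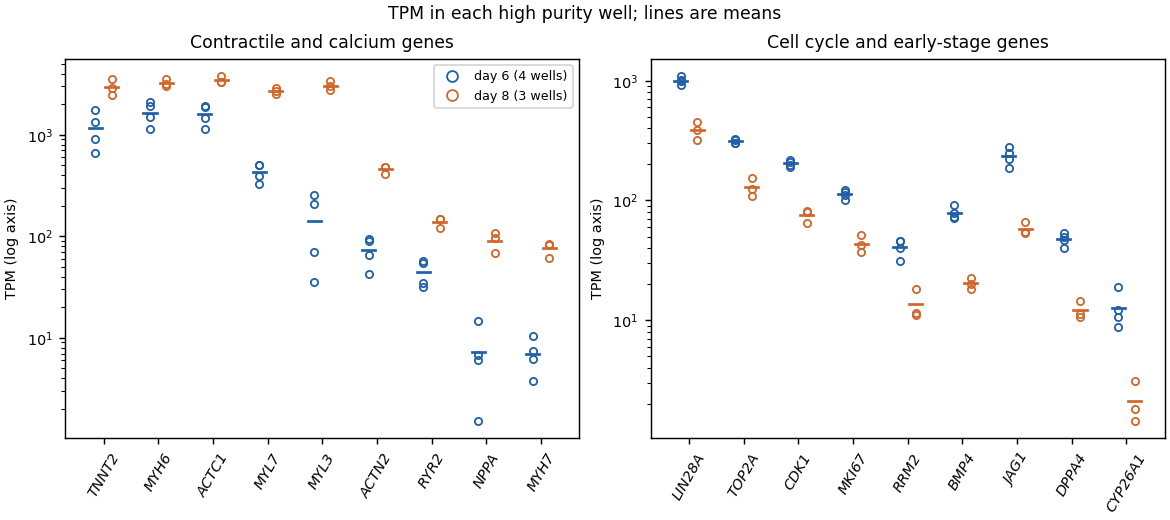
TPM (log axis) of 9 contractile or calcium genes and 9 cell cycle or early-stage genes in each of the 4 day 6 wells (blue) and 3 day 8 wells (orange), with horizontal lines at the means. The days do not overlap for any of the 18 genes, and the day 6 wells of MYL3 span 35.5 to 257 TPM.

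Upstream sequences of a few genes from the contractile and the proliferative groups are shown because the members of each group moved together. They are RefSeq promoter windows of GRCh38.p14, the 250 bases before an annotated start, 5' to 3'. The muscle genes ACTC1, MYL7 and SMPX, called higher, come first, with capitals marking matches on either strand to the SRF site (CArG box), the MEF2 site or the TATA box TATAAA. They were chosen after the matches were known.
ACTC1 (chr15:34795550-34795799, minus strand): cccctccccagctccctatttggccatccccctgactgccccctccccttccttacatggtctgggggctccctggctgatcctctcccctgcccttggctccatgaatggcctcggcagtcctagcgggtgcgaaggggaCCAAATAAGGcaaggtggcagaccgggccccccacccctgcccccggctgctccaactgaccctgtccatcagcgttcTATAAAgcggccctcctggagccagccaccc
MYL7 (chr7:44141333-44141582, minus strand): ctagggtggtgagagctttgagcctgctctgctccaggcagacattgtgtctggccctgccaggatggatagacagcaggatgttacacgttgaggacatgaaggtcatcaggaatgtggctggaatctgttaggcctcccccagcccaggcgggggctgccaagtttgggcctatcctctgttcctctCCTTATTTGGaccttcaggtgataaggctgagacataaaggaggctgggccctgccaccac
SMPX (chrX:21758117-21758366, minus strand): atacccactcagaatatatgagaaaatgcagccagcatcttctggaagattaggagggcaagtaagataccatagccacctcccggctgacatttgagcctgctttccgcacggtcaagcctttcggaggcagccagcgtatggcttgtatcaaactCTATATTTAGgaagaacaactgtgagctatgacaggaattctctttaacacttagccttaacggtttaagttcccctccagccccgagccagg

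The CArG box is bound by SRF, and MEF2 factors bind an AT-rich site, both known regulators of muscle genes. Of the 22 sarcomere and Z-disc genes called higher, 14 had a RefSeq promoter entry. Of these 4 held a CArG box in at least 1 window (28.6%, against 1.44% of the 27305 genes in the promoter table) and 4 held a MEF2 site (28.6% against 3.44%). TATAAA was found for 14.3% against 13.1%. Other motifs were scanned as well. The GATA motif AGATAA had the largest count, 6 of the 14 genes (42.9% against 11.1%), and CCAAT was found for 3 (21.4% against 37.0%). In ACTC1 the CArG box began 109 bases and the TATA box 31 bases before the start, in MYL7 the CArG box began 61 bases before it, and in SMPX the MEF2 site 93 bases before it. The windows of MYL3 held no CArG box, MEF2 site or TATAAA. A match is a string of letters and not evidence of binding in these wells. The levels of the factors themselves were not called: SRF was at a mean of 73.6 and 66.4 TPM, MEF2A at 65.9 and 88.0 TPM, and MEF2C at 85.4 and 109.7 TPM on days 6 and 8.

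Genes of calcium handling rose as well. Of 13 tested 9 rose and none fell, with a median log2 fold change of 1.92. RYR2, the calcium release channel of the sarcoplasmic reticulum, was at 57.4, 34.5, 31.6 and 54.4 TPM on day 6 and at 121, 149 and 149 TPM on day 8 (log2 fold change 1.94 ± 0.23). PLN, which restrains the calcium pump, and SLC8A1, the sodium-calcium exchanger, had log2 fold changes of 1.99 ± 0.23 and 1.92 ± 0.23. The pump itself, ATP2A2, was not called, at a mean of 194 TPM on day 6 and 264 TPM on day 8 (log2 fold change 0.73). TRDN, which anchors the release complex, had a log2 fold change of 2.99 ± 0.38. CASQ2, the calcium store of the reticulum, did not reach the filter. CACNA1C, the L-type calcium channel, was near the threshold (1.09) and was not called without day 6 well 2 or 3 or day 8 well 2 or 4.

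Among 9 other ion channel genes tested 1 was called in each direction. HCN4, the pacemaker channel, went from 15.3 to 30.3 TPM to 55.4 to 61.2 TPM (log2 fold change 1.66 ± 0.25), and KCNJ3, a G-protein-gated potassium channel, fell from a mean of 4.43 to 1.26 TPM. The latter was not called without day 8 well 2 (log2 fold change -0.97), and without day 6 well 4 or day 8 well 1 3 members rose. In edgeR and in DESeq2 on reads recovered from the TPM 4 rose. KCNIP2, a subunit of the transient outward potassium channel named by the size of its change, was at 5.12, 3.88, 3.94 and 7.96 TPM and then at 64.0, 76.1 and 60.4 TPM, a log2 fold change of 3.74 ± 0.22. Of 8 gap junction and desmosome genes 1 rose and 1 fell. GJA5, connexin 40, rose from 1.36 to 2.06 TPM to 3.55 to 4.35 TPM (log2 fold change 1.13 ± 0.19, 0.93 and not called without scaling). GJA1, connexin 43, fell from 338 to 594 TPM on day 6 to 116 to 194 TPM on day 8 (log2 fold change -1.36 ± 0.21), while the desmosome genes DSP and PKP2 were not called (0.31 and 0.33).

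Of 7 genes of the natriuretic peptide system, 2 rose and none fell. NPPA, atrial natriuretic peptide, was at 6.73, 6.06, 1.51 and 14.6 TPM on day 6 and at 67.8, 96.0 and 108 TPM on day 8, a log2 fold change of 3.98 ± 0.55 with an adjusted p of 0.0018. CORIN, the protease that activates it, rose from 19.6 to 32.5 TPM to 65.3 to 79.3 TPM. NPPB, brain natriuretic peptide, overlapped between the days, at 34.5 to 81.5 TPM and 26.3 to 54.6 TPM (log2 fold change 0.08 ± 0.38, adjusted p 0.90). The neighbouring hormone genes thus did not share a call.

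Transcription factors of the heart changed less than the structural genes. Of 14 tested 2 rose and none fell, with a median log2 fold change of 0.66 (0.39 without scaling, where none of the 14 was called). NKX2-5, a homeobox factor of heart specification, was at 72.4, 55.9, 48.4 and 72.1 TPM on day 6 and at 99.5, 123 and 116 TPM on day 8 (log2 fold change 1.14 ± 0.17), and without scaling its log2 fold change was 0.86. SMYD1, a muscle methyltransferase, was the other (1.02 ± 0.17), and it was not called without day 6 well 2 or 3 or day 8 well 2 or 4. GATA4, HAND2, GATA6 and TBX5 had log2 fold changes of -0.19, -0.02, 0.01 and 0.73 and were not called.

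IRX4, a homeobox factor of the ventricle, was at 3.01, 1.91, 0.238 and 1.88 TPM on day 6 and at 25.3, 31.6 and 33.1 TPM on day 8 (log2 fold change 3.83 ± 0.36, adjusted p 3.98e-04). IRX3 and IRX1 of the same family rose by 1.06 ± 0.16 and 1.29 ± 0.30. They and IRX4 were the 3 of 13 chamber and conduction genes that rose, but the count was 1 without day 8 well 4 and 5 without day 8 well 1, and IRX3 had a log2 fold change of 0.78 without scaling. RXRG, a retinoid X receptor named by its change, was at 0.266, 0.706, 0 and 0.472 TPM on day 6, which was 0 to 7 reads, and at 19.4, 26.6 and 22.3 TPM on day 8 (log2 fold change 4.32 ± 0.22).

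Progenitor genes were in part lower. Of 12 second heart field and progenitor genes 2 fell and none rose, with a median log2 fold change of -0.45. BMP4, a mesoderm-patterning growth factor, fell from 71.6 to 92.0 TPM to 18.3 to 22.7 TPM (log2 fold change -1.63 ± 0.13), and HOXB1 fell from a mean of 3.05 to 0.520 TPM, though it was not called without day 6 well 3 (log2 fold change -0.99). ISL1, a second heart field factor, was at 47.9, 48.8, 61.7 and 44.2 TPM and then at 32.8, 32.0 and 26.5 TPM. These wells did not overlap in TPM before scaling, as for 38.3% of all genes tested. The limma adjusted p was 0.0296, but the log2 fold change of -0.44 did not reach the threshold. KDR, a receptor of mesoderm progenitors and endothelium, had a log2 fold change of -0.84, and its adjusted p was 4.37e-04.

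Genes of the pluripotent state were lower on day 8. Of 7 tested 3 fell and none rose (median -0.84), and POU5F1 and NANOG did not reach the filter. LIN28A, an RNA-binding protein that blocks let-7, was at 986, 1088, 1009 and 917 TPM on day 6 and at 456, 391 and 318 TPM on day 8 (log2 fold change -1.10 ± 0.09). DPPA4 fell by 1.63 ± 0.11, and DNMT3B, a de novo DNA methyltransferase, fell by 1.03 ± 0.11 on the log2 scale, though DNMT3B was not called without day 8 well 2 (-0.95).

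The miR-302/367 cluster, which is transcribed in pluripotent cells, had few reads over its hairpins on day 6 and none on day 8. It was named after its values were seen. Its sequences are printed with the seed, bases 2 to 8, in capitals, since the seed sets which messages a miRNA can pair with. The 3p arms of miR-302a to d share 1 seed and that of miR-367 differs (RefSeq, GRCh38.p14).
hsa-miR-302a-3p: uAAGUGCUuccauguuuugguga
hsa-miR-302b-3p: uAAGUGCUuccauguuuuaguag
hsa-miR-302c-3p: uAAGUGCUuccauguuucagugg
hsa-miR-302d-3p: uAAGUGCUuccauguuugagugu
hsa-miR-367-3p: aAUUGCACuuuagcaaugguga

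The hairpins lie on chromosome 4 from 112647874 to 112648557, minus strand, inside the gene LARP7 on the other strand. In the GENCODE annotation of GRCh38 no LARP7 exon overlapped them. MIR302D had 12, 7, 11 and 2 reads in the day 6 wells and MIR367 had 12, 8, 3 and 3. Both had 0 reads in each of the 3 day 8 wells. With a floor of 3 reads per day 8 well, the mean TPM without scaling was at least 3.55-fold lower for MIR302D. For MIR367 it was at least 2.72-fold lower. TMM scaling would make both bounds smaller. Day 6 well 4 of MIR302D, at 7.51 TPM, lay within the day 8 floors of 6.82 to 11.2 TPM. MIR302D and MIR367 were called in limma (adjusted p 9.30e-04 and 3.61e-04). MIR302B had 1 to 4 reads and MIR302C 0 to 8 reads in the day 6 wells, and both had 0 on day 8. Their bounds on the same basis were only 1.26-fold and 1.36-fold. MIR302A had 3 reads in day 6 well 3 and 0 in every other well, so its bound (0.389) shows no fall. The host transcript MIR302CHG had 22 reads over the 4 day 6 wells and 5 over the 3 day 8 wells. These are fragments of longer RNA over the hairpins in poly(A) libraries and do not measure mature miRNA. The strand setting of the counting is not given in the sources used here, so reads from the host transcript and from LARP7 introns cannot be told apart. LARP7 itself was at 35.5 to 47.3 TPM on day 6 and at 22.6 to 26.8 TPM on day 8.

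Cell cycle genes were lower on day 8 throughout both lists. All 15 S phase genes and all 15 G2 and M phase genes had negative log2 fold changes with TMM scaling. Their wells did not overlap in TPM before scaling, against 38.3% of all genes tested in either direction. The adjusted p was under 0.05 for 14 and for 15 of them, against 4647 of the 18737 genes tested. The medians were -0.91 and -1.00, close to the fold threshold, so the called counts were 5 and 7 with none higher. Under the alternatives the G2 and M count ran from 3 (without day 8 well 4) to 12 (no scaling), and was 4 without day 6 well 2 or 3. The S phase count was 10 without day 8 well 1 and 11 without scaling. MKI67, the Ki-67 antigen of dividing cells, was at 101, 112, 123 and 117 TPM on day 6 and at 51.8, 42.5 and 36.8 TPM on day 8 (log2 fold change -1.09 ± 0.11, adjusted p 5.61e-04). CDK1, the kinase that drives entry into mitosis, fell from 190 to 217 TPM to 65.2 to 81.6 TPM, and RRM2, which makes deoxynucleotides, fell from 31.1 to 45.7 TPM to 11.1 to 18.3 TPM. Of 5 inhibitors tested 1 rose: CDKN1A, which codes for p21, was at 33.4, 25.7, 26.2 and 32.6 TPM and then at 61.7, 88.9 and 92.4 TPM (log2 fold change 1.69 ± 0.20). CDKN1C, CDKN2A and CDKN2C did not reach the filter. MKI67 continued to a mean of 10.1 ± 2.25 TPM (SD, n = 3) on day 16.

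For 3 of the cell cycle genes called lower the windows upstream of the start are given, with capitals at matches on either strand to the CCAAT box CCAAT and the cell cycle homology region TTTGAA, elements known from promoters of genes that act in mitosis. The motifs can overlap.
CDK1 (chr10:60778228-60778477, plus strand): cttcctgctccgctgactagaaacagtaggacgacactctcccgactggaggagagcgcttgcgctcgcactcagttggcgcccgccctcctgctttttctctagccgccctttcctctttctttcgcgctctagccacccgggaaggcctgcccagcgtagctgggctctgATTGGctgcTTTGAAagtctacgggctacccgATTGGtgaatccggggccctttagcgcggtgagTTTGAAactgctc
PLK1 (chr16:23678639-23678888, plus strand): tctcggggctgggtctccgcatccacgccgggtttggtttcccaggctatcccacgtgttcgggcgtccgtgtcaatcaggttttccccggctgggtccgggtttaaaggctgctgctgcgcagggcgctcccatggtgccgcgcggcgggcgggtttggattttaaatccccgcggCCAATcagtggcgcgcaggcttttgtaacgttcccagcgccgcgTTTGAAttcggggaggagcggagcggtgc
TOP2A (chr17:40417897-40418146, minus strand): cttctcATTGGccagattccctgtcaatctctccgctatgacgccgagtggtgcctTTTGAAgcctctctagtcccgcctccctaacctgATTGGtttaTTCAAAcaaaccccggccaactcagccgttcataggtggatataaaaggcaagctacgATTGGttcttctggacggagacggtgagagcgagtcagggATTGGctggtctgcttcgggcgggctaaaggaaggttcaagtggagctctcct

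Of the 12 cell cycle genes called lower 10 had a promoter entry, and 10 of those held CCAAT in at least 1 window, against 37.0% of all genes in the promoter table. TTTGAA was found for 4 of the 10 (40.0% against 16.1%). Over all 24 matched genes of both cell cycle lists, called or not, 21 held CCAAT (87.5%) and 7 held TTTGAA. The former was also present in other lists, in 12 of 13 matched cholesterol synthesis genes (92.3%) and in 7 of 11 glycolysis and hypoxia genes called higher (63.6%). PLK1, a mitotic kinase, was called at a log2 fold change of -1.03 and TOP2A, the mitotic topoisomerase, at -1.00. Leaving out day 8 well 4 or day 6 well 3 brought both under the threshold, and so did day 6 well 2 or day 8 well 2 for TOP2A.

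Genes of glucose use and of the hypoxia response rose broadly. Of 18 tested 12 rose and none fell (median 1.21), and without scaling 9 rose and 1 fell. LDHA, lactate dehydrogenase, was at 364, 377, 359 and 303 TPM on day 6 and at 786, 1029 and 747 TPM on day 8 (log2 fold change 1.55 ± 0.11). SLC2A1, the glucose transporter GLUT1, went from 54.0 to 61.1 TPM to 142 to 191 TPM, and BNIP3, a mitophagy receptor induced by hypoxia, from 464 to 496 TPM to 1156 to 1595 TPM. The day 6 wells were much alike for these genes, unlike for the sarcomere genes. ADM and CA9, which also respond to low oxygen, had negative log2 fold changes (-0.95 and -0.35) and were not called, and VEGFA had one of 0.41. ALDOA was listed at 3.12 to 4.50 TPM on day 6 and 8.19 to 9.07 TPM on day 8, low for an abundant enzyme, and its call is uncertain where reads were split with overlapping entries.

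Oxidative and muscle energy genes also rose. Of 13 genes of fatty acid oxidation 7 rose and none fell (median 1.01). FABP3, the heart fatty acid binding protein, was at 13.0, 11.7, 8.89 and 13.1 TPM on day 6 and at 70.7, 73.1 and 72.1 TPM on day 8 (log2 fold change 2.80 ± 0.14), and PPARGC1A, a coactivator of mitochondrial genes, had a log2 fold change of 1.55 ± 0.23. Of 9 muscle energy genes 6 rose (median 1.26). CKM, muscle creatine kinase, was at 36.7, 12.1, 7.68 and 28.7 TPM and then at 207, 258 and 206 TPM (log2 fold change 3.83 ± 0.46), and MB, myoglobin, went from 9.26 to 14.6 TPM to 63.2 to 71.2 TPM. COX6A2, the muscle form of a cytochrome oxidase subunit, was listed at 0 in 3 day 6 wells and at 4.79, 13.3 and 18.3 TPM on day 8.

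Nuclear genes of the respiratory chain were positive in all 17 tested (median 0.93), with 6 called. This count rests on the scaling, since 0 of the 17 were called without it, where their median was 0.65. COX6C, a cytochrome oxidase subunit, was at 296 to 326 TPM on day 6 and 512 to 635 TPM on day 8 (log2 fold change 1.14 ± 0.14), and 0.87 without scaling. Without day 8 well 4 the list had 4 calls and COX6C (0.98) was not among them. The only mitochondrially encoded RNAs in the table under the symbols searched were the rRNAs RNR1 and RNR2, and neither was called (0.50 and 0.80).

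Insulin was in the medium from day 6, and insulin is known to act on lipid synthesis and on FOXO target genes. Of 19 cholesterol synthesis genes tested 1 was called higher and none lower, near the 3.76% called higher among all genes tested. An adjusted p under 0.05 in limma was reached by 14, against 4647 of the 18737 genes tested. The median was 0.64 (0.38 without scaling). The count of calls was 3 without day 8 well 1, and 2 without day 6 well 1 or 2 or day 8 well 4. HMGCS1, which makes the precursor of mevalonate, was at 75.5, 76.6, 75.7 and 69.7 TPM on day 6 and at 120.3, 121.0 and 121.1 TPM on day 8. Its wells were very even, its log2 fold change of 0.97 ± 0.08 had an adjusted p of 3.10e-04, and it passed the fold threshold without day 8 well 1 (1.02). STARD4, a sterol carrier, was the gene called (1.38 ± 0.17). Of 9 fatty acid synthesis genes 0 were called in limma, in edgeR or in DESeq2. An unadjusted p under 0.05 in limma was reached by 8 of them, against 6916 of the 18737 genes tested. FASN, fatty acid synthase, had a mean of 259 TPM on day 6 and 145 TPM on day 8 (log2 fold change -0.56).

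Of 15 genes of the insulin and FOXO response 1 fell and none rose. That was PDK4, a kinase that holds back glucose oxidation and is lowered by insulin, which went from 4.13 to 6.52 TPM to 1.13 to 2.68 TPM (log2 fold change -1.18 ± 0.24). IRS2, an insulin receptor substrate repressed by insulin, was at 10.4, 9.87, 8.72 and 10.5 TPM and then at 5.71, 6.15 and 5.12 TPM. Its wells did not overlap in TPM before scaling, as for 38.3% of all genes tested. The limma adjusted p was 0.024, yet the log2 fold change was -0.47. IRS1 was also lower without a call (-0.60), as were INSR (-0.27) and IGF1R (-0.48). The called share of this list lay near the 6.79% of all genes tested. Its median was -0.07, and 0.02 without day 8 well 4, and 7 of the 15 genes had positive values. An effect of insulin was not tested, and medium and day cannot be told apart in these wells.

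**Figure D3:**
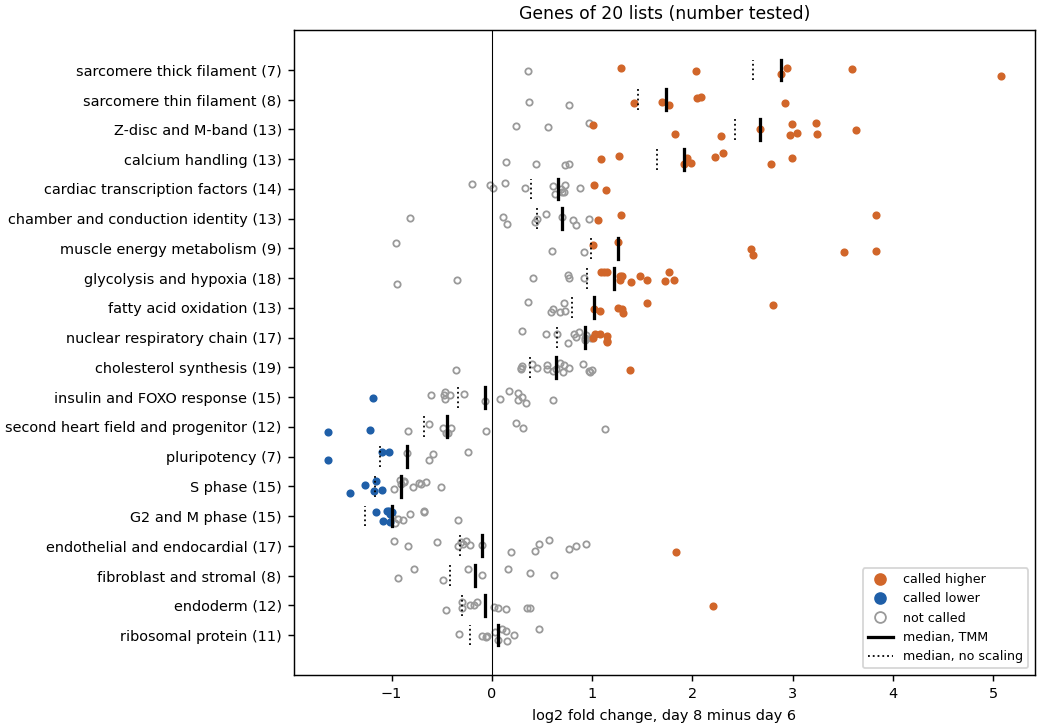
Log2 fold change from day 6 to day 8 (horizontal axis) of each tested gene in 20 lists, filled where called, with the number tested in parentheses and the median as a bar with TMM scaling (solid) and without scaling (dotted). Sarcomere, calcium and energy lists lie to the right with medians up to 2.88, and pluripotency and cell cycle lists to the left with medians from -0.84 to -1.00.

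Signalling genes changed one by one. Of 10 genes that WNT signalling is known to induce 1 rose and none fell: DKK1, a secreted WNT inhibitor, went from 13.4 to 26.8 TPM to 72.0 to 87.4 TPM (log2 fold change 2.36 ± 0.17), while AXIN2, LEF1 and SP5 had log2 fold changes of 0.55, -0.15 and -0.21 and were not called. Of 8 WNT ligands and inhibitors 3 rose, WNT2 (1.75), WNT11 (1.84) and WNT5B (2.07). WNT11, a ligand of early heart development, was at 5.93, 5.58, 1.75 and 7.98 TPM on day 6 and at 14.0, 17.5 and 18.3 TPM on day 8.

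Of 14 BMP genes 2 rose and 2 fell. The ligands BMP4 and BMP6 fell (-1.63 and -1.79), the ligand BMP7 rose from 33.0 to 43.2 TPM to 81.1 to 104 TPM (1.47 ± 0.12), and the secreted inhibitor NOG rose from 5.83 to 7.69 TPM to 18.5 to 22.7 TPM (1.76 ± 0.16). The target genes ID1 and ID3 were not called (-0.15 and -0.02). In the Notch list of 10 genes the ligand JAG1 fell, from 280, 221, 248 and 187 TPM to 54.9, 66.4 and 53.3 TPM (log2 fold change -1.71 ± 0.12), and JAG2 rose from a mean of 2.01 to 4.19 TPM, a call lost without scaling and without any of 5 of the 7 wells.

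In the retinoic acid list 1 of 10 tested genes rose and 2 fell, but 2 rose without day 6 well 4, without day 8 well 1, and in edgeR and DESeq2. ALDH1A1, which makes retinoic acid, rose from 18.5, 16.0, 7.40 and 15.7 TPM to 114, 80.2 and 57.6 TPM (log2 fold change 2.74 ± 0.29). CYP26A1, which degrades it, fell from 8.76 to 18.8 TPM to 1.44 to 3.08 TPM (-1.90 ± 0.26), and CYP26C1 fell by 1.52 on the log2 scale. In the FGF list 1 of 12 rose, FGF18, from 0.162 to 1.09 TPM to 4.97 to 11.8 TPM. Without day 8 well 2 the list had 2 rises, and with a filter at 5 TPM it had 0. IGFBP7 rose (2.24 ± 0.37) and IGFBP5 fell (-1.19 ± 0.19) among 7 genes of the IGF system.

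Adhesion and basement membrane genes were among the largest increases. VCAM1, an adhesion molecule of myocardium and endothelium, was at 8.53, 2.64, 3.03 and 7.09 TPM on day 6 and at 94.9, 108 and 111 TPM on day 8 (log2 fold change 4.43 ± 0.34). LAMA4, a laminin chain of muscle and vessel basement membranes, went from 1.92 to 5.98 TPM to 58.9 to 76.1 TPM (4.10 ± 0.28). With LAMA2 it made 2 rises among 11 basement membrane genes, while LAMA1, the chain of early embryonic basement membrane, was lower without a call (-0.98, means 232 and 97.1 TPM). Without day 6 well 4 or day 8 well 1 the list also had 1 fall.

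Other genes among the 15 largest increases were ADPRHL1, an ADP-ribosylhydrolase-like protein needed for heart chamber outgrowth (4.26 ± 0.27), TRH, thyrotropin-releasing hormone (3.86 ± 0.46), ABRA, a muscle actin-binding protein that activates SRF (3.70 ± 0.13), HSPB3, a small heat shock protein of muscle (3.63 ± 0.29), and SERPINA1, alpha-1 antitrypsin (3.82 ± 0.30). ABRA was the most even of them, at 8.08, 8.54, 7.45 and 9.66 TPM on day 6 and at 98.0, 102 and 103 TPM on day 8. Its day 8 level was not kept, since the day 16 mean was 15.2 ± 2.72 TPM (SD, n = 3), whereas the day 16 means of VCAM1, TRH and HSPB3 were 259, 333 and 151 TPM. Those later days were not tested here.

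**Figure D4:**
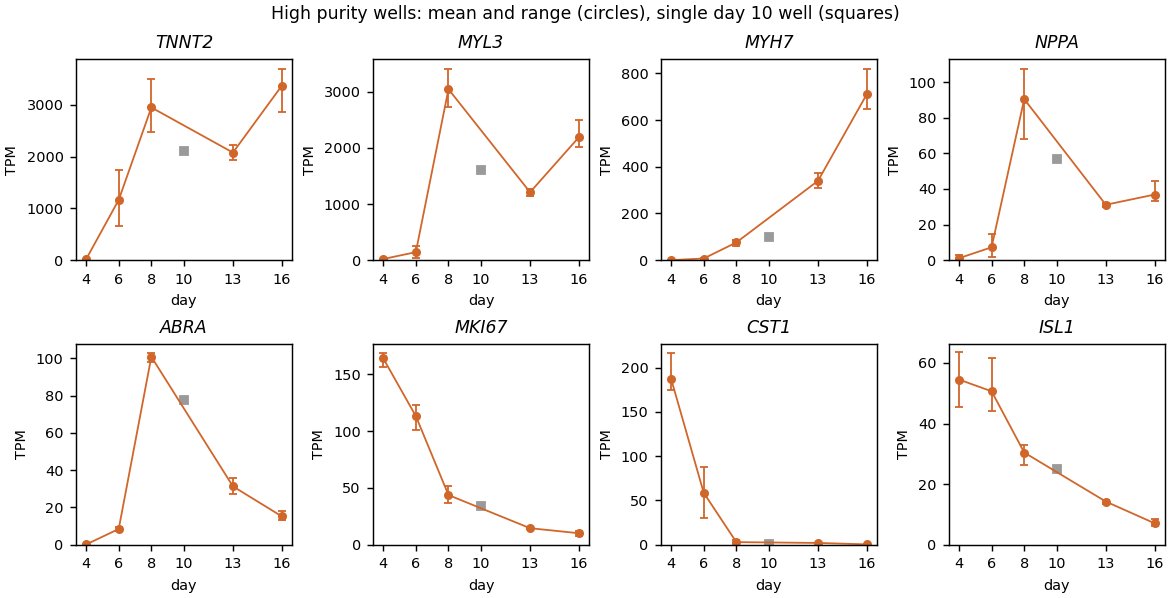
TPM by day in high purity wells for 8 genes, with circles at the mean and bars over the range of wells on days 4, 6, 8, 13 and 16, and a square for the single day 10 well. NPPA and ABRA are higher on day 8 (means 90.5 and 101 TPM) than on day 16 (36.9 and 15.2 TPM), whereas MYH7 goes on to 712 TPM.

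The largest decreases among protein-coding genes of at least 10 TPM follow. CST1, a secreted cysteine protease inhibitor, was at 52.7, 63.2, 88.0 and 30.6 TPM on day 6 and at 5.69, 0.846 and 2.24 TPM on day 8, which was 3 to 17 reads (log2 fold change -3.80 ± 0.47, adjusted p 0.0011). ITLN2, an intelectin, went from 20.3 to 46.5 TPM to 0.263 to 2.34 TPM (-3.69 ± 0.39), and WDR72 from 75.9 to 102.9 TPM to 8.29 to 12.4 TPM (-2.76 ± 0.13). ALAS2, the first enzyme of heme synthesis in red cells, was at 8.99 to 17.4 TPM and then at 0.834 to 1.11 TPM (-2.61 ± 0.24).

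The others were UGT3A2 (-2.48), a glycosyltransferase, CACNG4 (-2.48), an auxiliary calcium channel subunit, NTRK2 (-2.48), the BDNF receptor, KCNK12 (-2.35), a potassium channel, MAGEB17 (-2.34), FYB2 (-2.19), an adaptor protein, PTGIS (-2.08), prostacyclin synthase, C16orf54 (-2.05), PMAIP1 (-2.00), the proapoptotic NOXA, and PCDH10 (-2.00), a protocadherin. On day 4 some of these had been higher still: MAGEB17 had a mean of 316 TPM, PCDH10 of 156 TPM, CST1 of 187 TPM and PMAIP1 of 89.6 TPM. Others had been lower on day 4 than on day 6: WDR72 had a mean of 9.79 TPM and UGT3A2 of 17.5 TPM, so their day 6 level lay above both neighbouring days.

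Markers of other cell types were present beside the cardiac genes. Endoderm genes were abundant on both days: the summed level of the 13 listed genes was 1364 to 1766 TPM on day 6 and 1193 to 2140 TPM on day 8, with TTR at a mean of 793 and 877 TPM, and FOXA2 and HNF4A at 65.5 and 15.1 TPM on day 6. Of 12 tested 1 rose, AFP, which was at 10.6, 14.2, 11.6 and 13.4 TPM and then at 84.1, 42.3 and 35.3 TPM. SERPINA1 had the same order of day 8 wells, 50.3, 23.3 and 17.4 TPM, with well 1 highest. The part of endoderm cells in the SERPINA1 result was not tested.

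Endothelial genes summed to 346 to 420 TPM on day 6 and 226 to 307 TPM on day 8. Of 17 tested 1 rose, ESM1 (1.83 ± 0.21), and none fell, and CLDN5 did not reach the filter. Without day 6 well 2 or 4 there were 2 rises, and without day 6 well 1 or day 8 well 1 there was 1 fall. Of 14 blood genes 3 reached the filter and 11 did not, the globins HBA1, HBA2, HBG1 and HBG2 among those left out. TAL1 fell from a mean of 6.28 to 2.16 TPM, a call lost without day 6 well 2 or day 8 well 1 or 4. Fibroblast genes summed to 6554 to 8422 TPM and 4246 to 6704 TPM, mainly FN1. Of 8 tested 0 were called in limma and 1 was called lower in edgeR and in DESeq2. An unadjusted p under 0.05 in limma was reached by 5 of the 8, against 6916 of the 18737 genes tested. Of 4 epicardial genes tested SEMA3D rose, and WT1, TCF21 and UPK3B did not reach the filter. Of 6 smooth muscle genes 3 rose, ACTA2 (1.48), TPM2 (1.28) and MYL9 (1.01). MYL9 was not called without day 6 well 1, 2 or 3 or day 8 well 4. Of 7 amnion and surface epithelium genes 2 rose from low levels, VTCN1 (1.81 ± 0.35) and GABRP (2.33 ± 0.32), both highest in day 8 well 1. The summed level of that list was 2433 to 2889 TPM on day 6 and 1315 to 1640 TPM on day 8, most of it KRT19, which was not called (-0.68). Of 4 neural genes 2 rose, DCX (1.51 ± 0.20) and NES (1.07 ± 0.17), and NES was not called without scaling, without day 6 well 3 or without day 8 well 4. The part of these cell types in the results above was not tested.

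Ribosomal protein genes served as a housekeeping list. Of 11 tested 0 were called in limma, in edgeR or in DESeq2, and 1 had an unadjusted p under 0.05 in limma. Their median of 0.06 turned to -0.22 without scaling.

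The change from day 6 to day 8 was then set against the same change in the low purity wells. The difference of the changes, high minus low purity, was tested in 1 limma fit of the 15 wells over 21489 genes with at least 1 TPM in 3 wells. It was called for 390 genes with the larger change in high purity (1.81%) and for 491 with the larger change in low purity (2.28%), where larger means more positive. Of these calls 44.3% were in the high purity direction with TMM and 21.5% without scaling, so the balance again depends on it.

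The sarcomere rise was larger in high purity for some members. In the thick filament list the difference was called for 4 of 7 genes, MYL3, MYL4, MYL7 and MYH7, and for none in the other direction (median 1.30). MYL3 was at 74.5 to 271 TPM in low purity wells on day 6, close to the high purity range, and at 585 to 1333 TPM on day 8, a difference of changes of 2.79 ± 0.81 (SE, adjusted p 0.0361). This call was lost with the replicate block (adjusted p 0.0823) and without high purity day 6 well 2, day 8 well 2 or 4, or low purity day 6 well 1, 2 or 3 or day 8 well 1 or 4 (adjusted p 0.0601 to 0.0754). For MYH7 the difference was 2.21 ± 0.48. Its low purity wells lay above the high purity wells on day 6 (16.5 to 42.9 TPM) and overlapped them on day 8 (60.8 to 126 TPM). The differences of CSRP3, VCAM1 and CKM (1.498, 1.821 and 2.346) were called, but each call was lost without high purity day 6 well 2 or 3, day 8 well 2 or 4, or low purity day 6 well 1, 2 or 3 or day 8 well 1 or 4. That of VCAM1 was also lost without high purity day 8 well 1, and that of CSRP3 without low purity day 8 well 3. TNNT2, MYH6 and ACTC1 had no called difference (1.23, 0.34 and 0.49).

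Other genes with the larger rise in high purity were SLN, ESM1, ADPRHL1, A2M and TPPP3. SLN, sarcolipin, an inhibitor of the calcium pump, was at 0.332, 0.756, 0 and 1.06 TPM on day 6 and 6.69, 5.94 and 3.43 TPM on day 8 in high purity, against 46.3 to 119 TPM and 22.3 to 28.3 TPM in low purity. It thus rose in one and had lower values on day 8 in the other, and yet was higher in low purity on both days (difference 3.63 ± 0.40, adjusted p 8.37e-05). ESM1, a proteoglycan of endothelium, was at 0.299 to 0.597 TPM in low purity wells on day 8 against 19.7 to 29 TPM in high purity (3.10 ± 0.37). ADPRHL1 and TPPP3, a tubulin-binding protein, had differences of 2.92 ± 0.35 and 2.76 ± 0.26. A2M, alpha-2-macroglobulin, rose in high purity from 9.72 to 14.5 TPM to 75.5 to 100.2 TPM, a level the low purity wells had on both days (37.5 to 103 TPM and 70.6 to 128 TPM).

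The naming rule gave 6 genes with a larger change in low purity. For ACTG2, PSAT1 and TTC29 there was no call in high purity and a higher level on day 8 in low purity. ACTG2, smooth muscle actin, was at 0 to 1.05 TPM in high purity on day 8 and at 26.2 to 38.3 TPM in low purity (difference -4.29 ± 0.47). PSAT1, an enzyme of serine synthesis, was at 31.3 to 50.2 TPM against 204 to 269 TPM (-2.74 ± 0.16, adjusted p 5.04e-07). For SERPINE2, PTGIS and PMAIP1 the high purity wells fell while the low purity wells had higher values on day 8. SERPINE2, a secreted protease inhibitor, was at 114, 156, 166 and 112 TPM and then at 36.7, 41.2 and 30.0 TPM in high purity, against 45.5 to 51.5 TPM and 92.4 to 109 TPM in low purity (-2.65 ± 0.19).

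The cell cycle lists had negative differences (medians -0.69 and -0.68), with 2 S phase genes and 1 G2 and M phase gene called. CDK1 was that gene: it was at 148 to 183 TPM on day 6 and 144 to 161 TPM on day 8 in low purity (difference -1.05 ± 0.09, adjusted p 1.76e-05). For MKI67 the difference was -0.41 ± 0.13 and not called. The glycolysis and hypoxia list had 3 called differences of 18, NDRG1, SLC2A1 and ALDOA, all larger in high purity, while LDHA (0.12 ± 0.20) and BNIP3 (0.26 ± 0.23) had none. In the amino acid stress list 5 of 11 differences were larger in low purity and none in high purity. Cholesterol synthesis had 0 of 19 differences called in limma (4 with an unadjusted p under 0.05, median 0.02), and the difference for HMGCS1 was 0.02 ± 0.11.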

How the data were processed

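RNA extracted with Trizol was made into poly(A) libraries with a stranded mRNA kit, per the labels' protocols. The authors deposited TPM per gene for 56 libraries and a matching table of read counts. STAR 2.5.3a, featureCounts 2.0.3 and hg38 are named in the submitters' processing notes, and the strand setting of the counting is not given in the sources used here. The deposited count table was not used, since for 0 of its 56 columns did the counts fit the identically named TPM column. Gene lengths were solved from count and TPM tables of other libraries of the series, and whole reads came out for 37194 of 43388 genes (tolerance 0.02 reads), for all their values. The reads served for depth and for edgeR and DESeq2 as alternatives. Read floors cover counting error only, while the standard errors from limma measure the spread between wells.

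TPM were divided by TMM factors (edgeR 4.0.16) and taken as log2(TPM + 1). Genes with at least 1 TPM in 3 wells were tested with limma 3.58.1 (trend, 5 residual degrees of freedom, Benjamini-Hochberg adjustment, R 4.3.3). The difference between purities was fitted over 15 wells (11 residual degrees of freedom) with the same filter. Log2 fold changes on this scale understate changes of low genes. DESeq2 was version 1.42.0. The fits were tested on simulated data. Alternatives were no scaling, RLE scaling, rescaling without mitochondrial RNA and RN7SK, other pseudocounts and filters, a fit of all 56 libraries, a replicate block, count models and leaving out each well.

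Genes were named by a rule: the 15 largest called changes each way among protein-coding genes with a mean of at least 10 TPM on the higher day and no overlap of wells, the 6 largest called differences each way under the same conditions, list members, and 12 cardiac and metabolic genes whatever their value. The 46 gene lists (535 genes) and these members were chosen with earlier results of these data known. The named values of 1 of the 15 largest decreases and of 1 list member are not reported here. Symbols were matched to RefSeq (16961 matched). Nothing names separate cultures beyond wells, so p-values measure the spread between wells.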

Additional observations from a re-analysis of the deposited data

Results flagged for a closer look

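Of 50 values tested in the 4 day 6 wells, 2 had a well far from the others by Dixon's criterion, which by chance marks about 1 group in 20. HSPB3 was at 0.8035 TPM in day 6 well 2 and listed at 0 in the other wells. With the others tied at 0 any nonzero value would be marked, so this mark says nothing about the well. HMGCS1 was at 69.7354 TPM in day 6 well 4, against 75.5 to 76.6 TPM in the others.

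The change from day 6 to day 8 differed between high and low purity wells, by limma's test of the difference on the log2 scale, for the following genes. The difference was positive for the sarcomere and Z-disc genes MYL3 (2.791), MYL7 (1.319), MYH7 (2.207) and CSRP3 (1.498), for the muscle genes ABRA (1.293), ADPRHL1 (2.917), CKM (2.346) and SLN (3.628), for the potassium channel subunit KCNIP2 (1.658), and for the regulators IRX4 (2.017) and RXRG (2.263). That of IRX4 was not called in edgeR (adjusted p 0.0609), in DESeq2 (0.0712) or with a pseudocount of 0.1 (0.1565). It was also positive for the adhesion gene VCAM1 (1.821), ESM1 (3.102), A2M (2.762) and TPPP3 (2.756).

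The difference was negative for NPPB, brain natriuretic peptide (-1.888), for the membrane genes CACNG4 (-2.298), NTRK2 (-2.397), KCNK12 (-1.931) and PCDH10 (-1.808), and for the enzyme genes ALAS2 (-2.009), UGT3A2 (-1.071), PTGIS (-2.709) and PSAT1 (-2.744). It was negative as well for FYB2 (-1.826), MAGEB17 (-1.006), PMAIP1 (-2.855), SERPINE2 (-2.654), ACTG2 (-4.29) and TTC29 (-2.553). The call of MAGEB17 was lost with RLE scaling (-0.99), in the fit of 56 libraries (-0.97) and with no filter, and without high purity day 6 well 1, 2 or 3 or day 8 well 1 or 2, or low purity day 6 well 1, 2 or 3 or day 8 well 1, 2 or 4 (adjusted p 0.0547 to 0.0992). That of UGT3A2 was lost without high purity day 8 well 2 (-0.91), in edgeR (-0.9977) and in DESeq2 (-0.98).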

How the results depend on the processing

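With the fold threshold left out 4647 genes passed for day 8 against day 6 and 2764 for the difference between purities. Under the other alternatives the first count ran from 954 (filter at 5 TPM) to 1720 (DESeq2), with 1158 to 1420 on leaving out single wells, against 1273. The second ran from 667 (filter at 5 TPM) to 1172 (DESeq2), with 783 to 992 on leaving out single wells, against 881. Rescaling without mitochondrial RNA and RN7SK gave 42.5% of calls higher on day 8. Genes named only as list members were first left aside. For the other genes named by rule, 777 values of the day 8 change kept their call and direction. Of the rest 1 lost it (NKX2-5 without scaling, 0.86) and 1 gained it. With called list members included, 2600 values kept it, 118 lost it and 1 gained it. For the difference between purities 678 values kept their call and 72 lost it without those list members. With called list members included, 2179 kept it and 260 lost it.

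The replicate numbers were checked for pairing. Same-numbered wells of the days had deviations correlated at 0.03, 0.01 and 0.17. Only well 4 of day 8 correlated best with its own number, and its value was the largest of all pairs. These correlations were not tested, so they cannot settle whether the wells were paired. With the replicate block 1125 genes were called for day 8 against day 6 and 858 for the difference.

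Depth limits the low genes: 54 of the 1271 called genes with recovered reads had at most 10 reads in every well. The causes of the changes between settings were not tested.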

Other observations

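The genes here lie outside the naming rule and were chosen after their values were seen. Each was called in limma with non-overlapping wells. Further muscle genes rose: HSPB7, a small heat shock protein of the heart, had a mean of 51.7 TPM on day 6 and 478 TPM on day 8 (log2 fold change 3.51 ± 0.26). The ubiquitin ligase gene TRIM63 rose by 3.05 ± 0.29, FBXO40 by 3.40 ± 0.27 and the sarcomere-associated KLHL41 by 3.25 ± 0.26 on the log2 scale.

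Some plasma protein genes were called, while of the 12 endoderm genes tested, TTR among them, only AFP was. The fibrinogen chains FGA, FGB and FGG had mean levels of 10.0, 10.1 and 1.26 TPM on day 6 and 72.6, 81.2 and 19.4 TPM on day 8, and VTN, vitronectin, went from 50.4 to 151 TPM. Their log2 fold changes were 2.98, 3.00, 3.22 and 1.82.

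Among the genes that fell were both members of a ligand and receptor pair of early heart progenitors: APELA went from a mean of 246 to 59.9 TPM (-1.75 ± 0.17) and its receptor APLNR from 139 to 45.0 TPM (-1.31 ± 0.11). The transcription factor genes GATA3 (-1.63) and FOXC1 (-1.51) fell. The long noncoding RNA LOC105370826 went from a mean of 213 to 18.3 TPM (-3.20 ± 0.09).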
